A study of Homo sapiens with 12 samples.

Results

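Carbonic anhydrases and pH regulators were followed as a set of 7 genes named by symbol: CA9, CA12, CA2, SLC16A3, SLC16A1, BSG and SLC4A7. All 7 had a row among the 16299 genes of the table, and 6 were tested, CA2 lying under the filter of at least 1 RPKM in at least 2 libraries. Messenger RNA was measured in 12 libraries of BXPC3 and PANC1, 2 established human pancreatic cancer lines. Each line was embedded in collagen, in 5% gelatin methacryloyl (GelMA, a cross-linkable gelatin) or in 7.5% GelMA, and each of these 6 groups had 2 libraries. Both lines had been grown in high glucose medium with serum. No label states how stiff or oxygenated the gels were, how long the cells stayed in them or whether replicates were separate cultures, so the p-values reflect library-to-library spread alone, and that spread may be technical.

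Tumour cells that ferment glucose release lactate and protons and must keep their cytoplasm from turning acid. Monocarboxylate transporters carry 1 lactate with 1 proton across the membrane: MCT4 (SLC16A3) is the exporter of glycolytic cells, MCT1 (SLC16A1) works in either direction, and both need the glycoprotein basigin (BSG, also CD147) to reach the surface. Carbonic anhydrases convert carbon dioxide and water to bicarbonate and a proton. CA9 and CA12 do so on the outer face of the membrane and CA2 in the cytosol, while the cotransporter NBCn1 (SLC4A7) brings sodium and bicarbonate into the cell. CA9 is a classical target of the hypoxia-inducible factors, which bind DNA at a core of ACGTG or GCGTG.

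The 250 bases before the annotated transcript starts were searched for this core. Stretches are shown for 3 members, chosen after their values were seen. CA9 and SLC16A3 were each lower in GelMA in both lines, by unlike amounts, whereas BSG moved little (0.03 log2 in BXPC3 and -0.22 in PANC1). Whether the core is linked to these differences was not tested. Only windows of these members that hold ACGTG are shown, and which start the cells use is not known. Sequences are from RefSeq on GRCh38.p14, and 5 of the 7 members (not CA2 and SLC16A1) matched an entry, with 11 windows. Each runs 5′ to 3′, and capitals mark ACGTG or GCGTG read on either strand, so that CACGTG counts once on each. Bases that GENCODE 29 places in an exon were trimmed off, and for CA9, whose match lies in such a stretch, the last 30 bases before the start are shown.
CA9, chr9:35673898-35673927, plus strand: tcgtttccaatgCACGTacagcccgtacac
SLC16A3, chr17:82228792-82229031, plus strand: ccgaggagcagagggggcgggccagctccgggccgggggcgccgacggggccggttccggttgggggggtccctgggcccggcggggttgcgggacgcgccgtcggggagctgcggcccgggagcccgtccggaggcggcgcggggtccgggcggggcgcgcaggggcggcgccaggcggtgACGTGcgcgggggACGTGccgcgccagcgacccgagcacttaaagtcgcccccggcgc
BSG, chr19:572346-572564, plus strand: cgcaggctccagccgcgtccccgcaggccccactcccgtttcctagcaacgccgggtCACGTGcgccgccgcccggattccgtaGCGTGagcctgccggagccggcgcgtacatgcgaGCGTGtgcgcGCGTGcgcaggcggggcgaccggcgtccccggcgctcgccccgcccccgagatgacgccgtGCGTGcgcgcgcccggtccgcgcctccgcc
The CA9 window held 1 match, which began 18 bases before the start. The SLC16A3 window held 2, at 68 and 55 bases before the start. This is 1 of 5 annotated SLC16A3 starts, whose windows held 0, 2, 0, 3 and 1 matches. The CA12 window had 1 match, at 234 bases, and the BSG window had 6, of which 2 are a single CACGTG. The other BSG window held 0, and the 2 windows of SLC4A7 held 2 and 0. Of 35116 promoter windows of the same length, 43.2% held at least 1 match, 18.5% held ACGTG and 32.2% held GCGTG. At least 2 matches were held by 19.4% and at least 4 by 3.2%. A match describes the letters and does not show binding.

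The line labels and the libraries were checked first. SMAD4, which BXPC3 lacks, was at -5.92 to -5.35 log2 RPKM in BXPC3 and 3.94 to 4.55 in PANC1. Replicates correlated at 0.9922 to 0.9950 across genes, and 0 pairs of libraries were identical. Summed fibroblast markers (3 of 8 in the table) were at 18.4 to 21.0 RPKM in BXPC3, and in PANC1 at 142 to 148 in collagen and 223 to 426 in GelMA, where COL1A1 rose by 1.66 ± 0.06 log2, while COL3A1 fell by 2.62 ± 0.10 and ACTA2 was at -0.28 and did not pass. Summed immune markers (4 of 7) lay between 6.65 and 26.1 RPKM, endothelial markers (3 of 5) between 0.228 and 4.12 and acinar or endocrine markers (1 of 8) between 0.044 and 9.79, and 0 of 5 erythroid markers had a row. Of 13 mitochondrially encoded genes, 8 rose in GelMA in PANC1 and 1 in BXPC3, where 1 fell. The values were taken as quantile normalized (sorted values nearly equal between libraries), which ties the highest genes to fixed levels. MT-CO1 had a mean of 13.735 log2 RPKM in every group, so a change in its amount could not show. Over all genes tested, 27.7% rose in PANC1 and 19.4% in BXPC3, where 16.7% fell. The part of these markers in the results below was not tested.

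**Figure D1:**
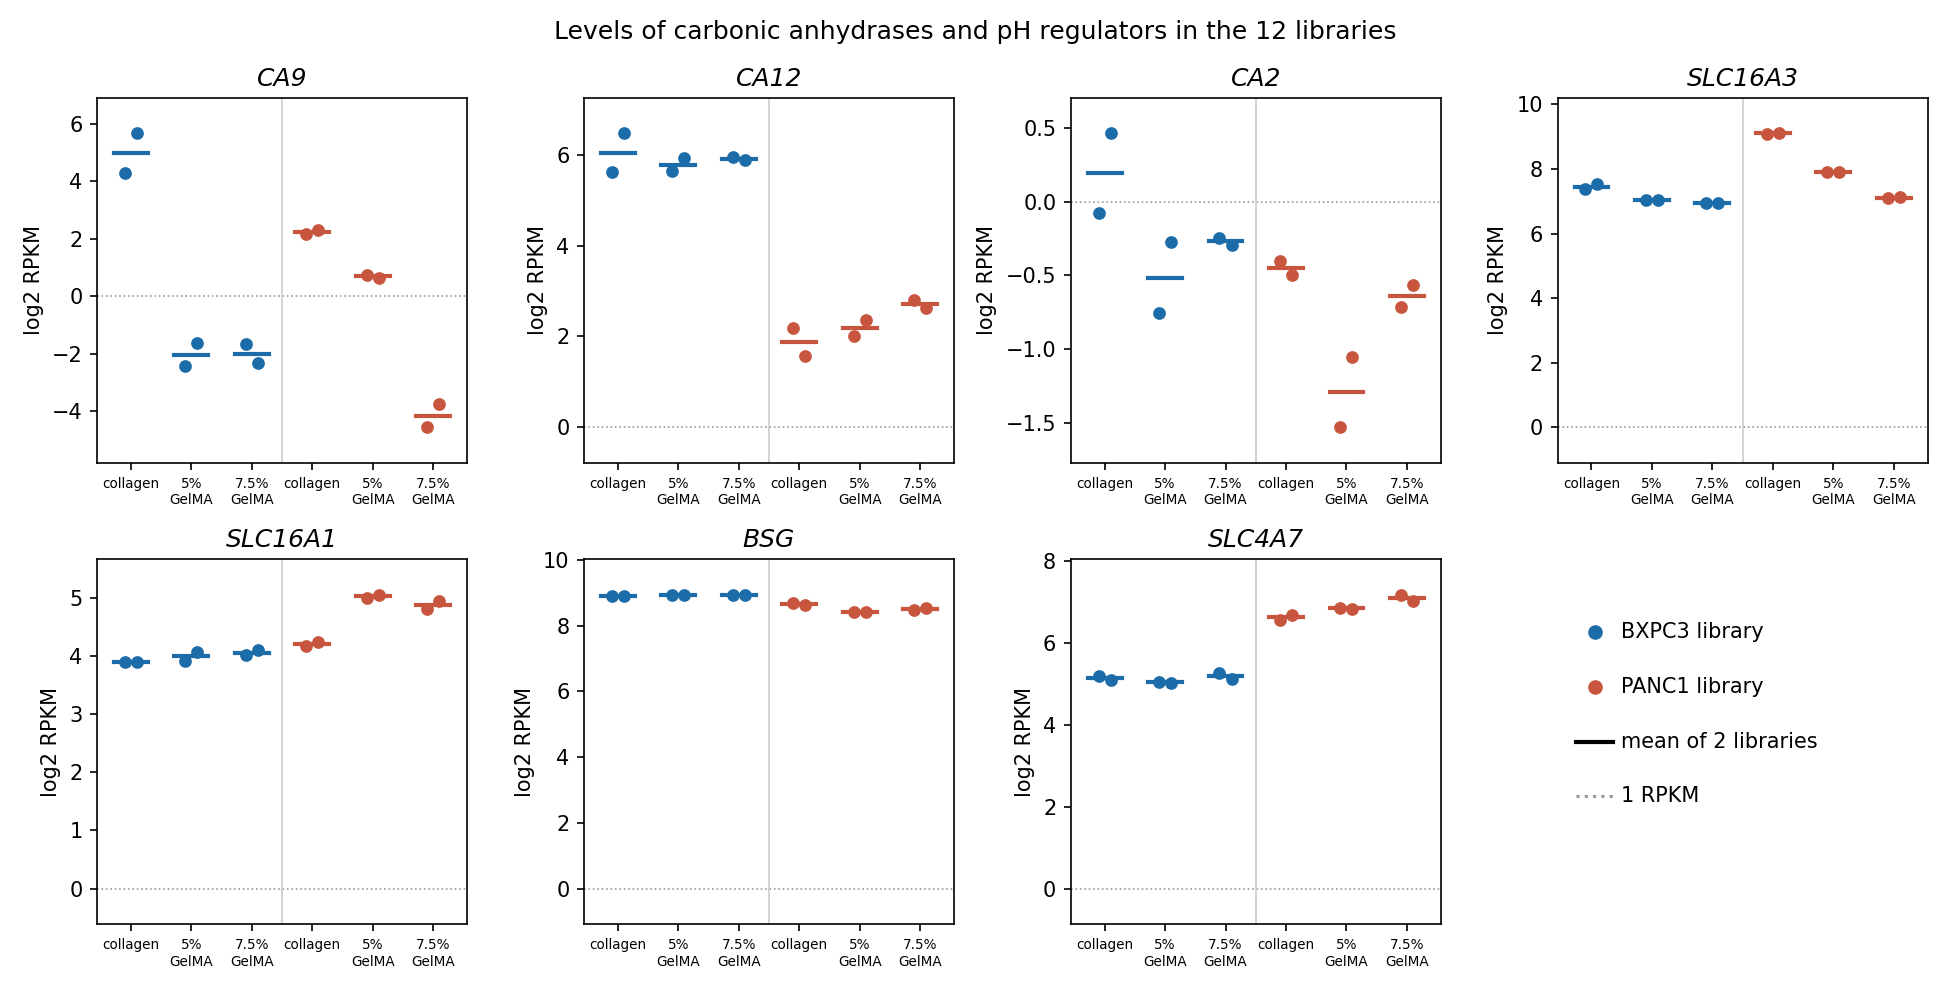
Deposited log2 RPKM (y axis, a separate scale per gene) of the 7 genes in the 6 groups (x axis), with 1 point per library and a bar at the mean of 2. CA9 in BXPC3 dropped from 4.28 and 5.67 in collagen to below -1.6 in all 4 GelMA libraries, while in PANC1 both CA9 and SLC16A3 stepped down from collagen through 5% to 7.5% GelMA.

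CA9 (ENSG00000107159, chromosome 9, 35673856 to 35681159 on GRCh38, plus strand), the membrane-bound carbonic anhydrase IX, was the member that differed most between gels. In BXPC3 it was at 4.28 and 5.67 log2 RPKM in collagen, -2.43 and -1.61 in 5% GelMA and -1.65 and -2.32 in 7.5% GelMA. The collagen libraries were about 31.4 RPKM on average and all 4 GelMA libraries were below 0.33 RPKM, with no overlap. In PANC1 it was at 2.18 and 2.31 in collagen, 0.75 and 0.64 in 5% GelMA and -4.55 and -3.74 in 7.5% GelMA, 3 levels without overlap. Groups of 2 libraries separate easily, and the share of all genes that do so is not given. Overlap is therefore only described, here and for the members below. In bulk libraries such as these, fewer cells with a transcript and less transcript per cell cannot be told apart.

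With both GelMA concentrations averaged, the CA9 level fell by 6.98 ± 0.40 log2 against collagen in BXPC3 (SE, limma adjusted p = 6.17e-06) and by 3.97 ± 0.40 in PANC1 (adjusted p = 2.19e-05). The difference between the lines in this effect was 3.01 ± 0.57 (PANC1 minus BXPC3, adjusted p = 0.00237). That difference was called at 5% GelMA alone, where CA9 differed from collagen by -6.99 ± 0.47 in BXPC3 and -1.55 ± 0.47 in PANC1 and the lines differed by 5.44 ± 0.66 (limma adjusted p = 0.00026). At 7.5% GelMA the effects were -6.96 and -6.39, and their difference of 0.57 ± 0.66 did not pass (limma adjusted p = 0.539). Between the concentrations the lines parted the other way. From 5% to 7.5% GelMA the CA9 level in PANC1 fell by 4.84 ± 0.47 (adjusted p = 0.00015), while in BXPC3 the difference was 0.04 ± 0.47, with a 95% interval from -1.01 to 1.08. The concentration effects differed between the lines by -4.88 ± 0.66 (adjusted p = 0.00238). CA9 was under 1 RPKM in 6 of the 8 GelMA libraries. On the log2(RPKM + 1) scale the GelMA effect was -4.70 in BXPC3 and -1.79 in PANC1, both still called. The step between concentrations in PANC1 was then -1.31 (adjusted p = 0.0125), and the difference between the lines in that step lost its call (-1.31, adjusted p = 0.0823).

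The order of CA9 levels ran from BXPC3 in collagen (4.97 ± 0.99, SD, n = 2) through PANC1 in collagen (2.25 ± 0.09) and PANC1 in 5% GelMA (0.70 ± 0.08) to BXPC3 in 7.5% and 5% GelMA (-1.98 ± 0.47 and -2.02 ± 0.57) and PANC1 in 7.5% GelMA (-4.15 ± 0.57). The 2 BXPC3 GelMA groups overlapped and no other neighbours did. CA9 was therefore higher in BXPC3 than in PANC1 in collagen and in 7.5% GelMA, and lower in 5% GelMA. In 7.5% GelMA both means were far below 1 RPKM (0.25 in BXPC3 and 0.06 in PANC1). The lines were not tested against each other within a single matrix. Averaged over the 3 matrices PANC1 was lower by 0.72 ± 0.27 (adjusted p = 0.0255). That call was lost when any 1 of 6 libraries was left out, namely replicate 2 of BXPC3 in collagen, BXPC3 in 5% GelMA or PANC1 in 5% GelMA, or replicate 1 of BXPC3 in 7.5% GelMA, PANC1 in collagen or PANC1 in 7.5% GelMA. The limma adjusted p was then 0.0525 to 0.074 and the difference -0.71 to -0.49.

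CA9 overlaps ARHGEF39 on the opposite strand, and no label says whether counting used the strand. ARHGEF39 did not follow CA9: its difference in GelMA was 0.15 ± 0.07 in BXPC3 and 0.04 ± 0.07 in PANC1, and neither passed. The genes whose profile over the 12 libraries lay nearest to that of CA9, by the root mean square difference after each line's mean was subtracted, were PPFIA4 (1.33 log2), MIR210HG, the host transcript of miR-210 (1.68), and ANGPTL4, an inhibitor of lipoprotein lipase (1.79). CA9's own root mean square deviation was 3.04. With both GelMA concentrations averaged, these genes moved less than CA9 in both lines. PPFIA4 differed by -3.83 in BXPC3 and -2.81 in PANC1, MIR210HG by -2.55 and -2.66, and ANGPTL4 by -2.27 and -3.22. This did not hold for each step, as in PANC1 ANGPTL4 went from 8.88 log2 RPKM in collagen to 6.76 in 5% GelMA, and CA9 from 2.25 to 0.70.

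CA12 (ENSG00000074410, chromosome 15, 63321378 to 63382161, minus strand), the other membrane-bound carbonic anhydrase of the set, stayed high in BXPC3 in every gel. Its values there were 5.62 and 6.47 log2 RPKM in collagen, 5.64 and 5.93 in 5% GelMA and 5.94 and 5.89 in 7.5% GelMA. All 4 GelMA values lay between the 2 collagen libraries. The difference in GelMA was -0.20 ± 0.23 (95% interval -0.72 to 0.32, adjusted p = 0.551). It was 0.23 without collagen replicate 2 and -0.62 without collagen replicate 1, so a single library set its sign.

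In PANC1, CA12 was at 2.18 and 1.56 in collagen, 2.00 and 2.37 in 5% GelMA and 2.80 and 2.64 in 7.5% GelMA. The 7.5% libraries lay above both collagen libraries, and the 5% libraries overlapped them. The difference in GelMA was 0.58 ± 0.23 and missed the threshold (adjusted p = 0.0562), although it was called when only PANC1 libraries were fitted (adjusted p = 0.0345), at 7.5% GelMA alone against collagen (0.85, adjusted p = 0.022) and without PANC1 collagen replicate 1 (0.89, adjusted p = 0.0243) or without either BXPC3 collagen library (adjusted p = 0.018 and 0.0182). The difference between the lines in the GelMA effect was 0.78 ± 0.33 (adjusted p = 0.0879). It was called after rescaling to steady genes, in which each library is shifted so that the median of 10 housekeeping genes is equal (0.89, adjusted p = 0.0485) and without BXPC3 collagen replicate 1 (1.21) or PANC1 collagen replicate 1 (1.09). In the deposited values 5 of these 10 genes were themselves called higher in GelMA in BXPC3 and 6 in PANC1, and 0 lower. Of all genes tested, 19.4% and 27.7% were called higher. Results after rescaling therefore depend on reference genes that were not all steady here. Over all matrices PANC1 had 3.66 ± 0.16 log2 less CA12 than BXPC3 (adjusted p = 1.59e-09), the widest gap between the lines among the 6 tested members.

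CA2 (ENSG00000104267, chromosome 8), the abundant cytosolic isoform of pancreatic duct cells, was near or below 1 RPKM throughout and was not tested. It was at -0.08 and 0.46 log2 RPKM in BXPC3 in collagen, -0.76 and -0.27 in 5% GelMA and -0.24 and -0.29 in 7.5% GelMA. In PANC1 it was at -0.40 and -0.50 in collagen, -1.53 and -1.05 in 5% GelMA and -0.71 and -0.57 in 7.5% GelMA. Collagen held the higher values in both lines, but all 12 libraries lay between 0.346 and 1.38 RPKM, where the depth, which is unknown here, limits any reading.

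The balance of the 2 surface enzymes, compared per length within each library, differed between the gels. CA12 exceeded CA9 by 1.07 ± 0.38 log2 (SD, n = 2) in BXPC3 in collagen and by 7.81 ± 0.36 and 7.90 ± 0.43 in 5% and 7.5% GelMA. In PANC1 the difference was -0.37 ± 0.53 in collagen, 1.49 ± 0.34 in 5% GelMA and 6.87 ± 0.69 in 7.5% GelMA. CA9 reached the level of CA12 only in PANC1 in collagen, where 1 library had equal levels (0.00) and the other had more CA9 (-0.75). These differences were not tested.

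**Figure D2:**
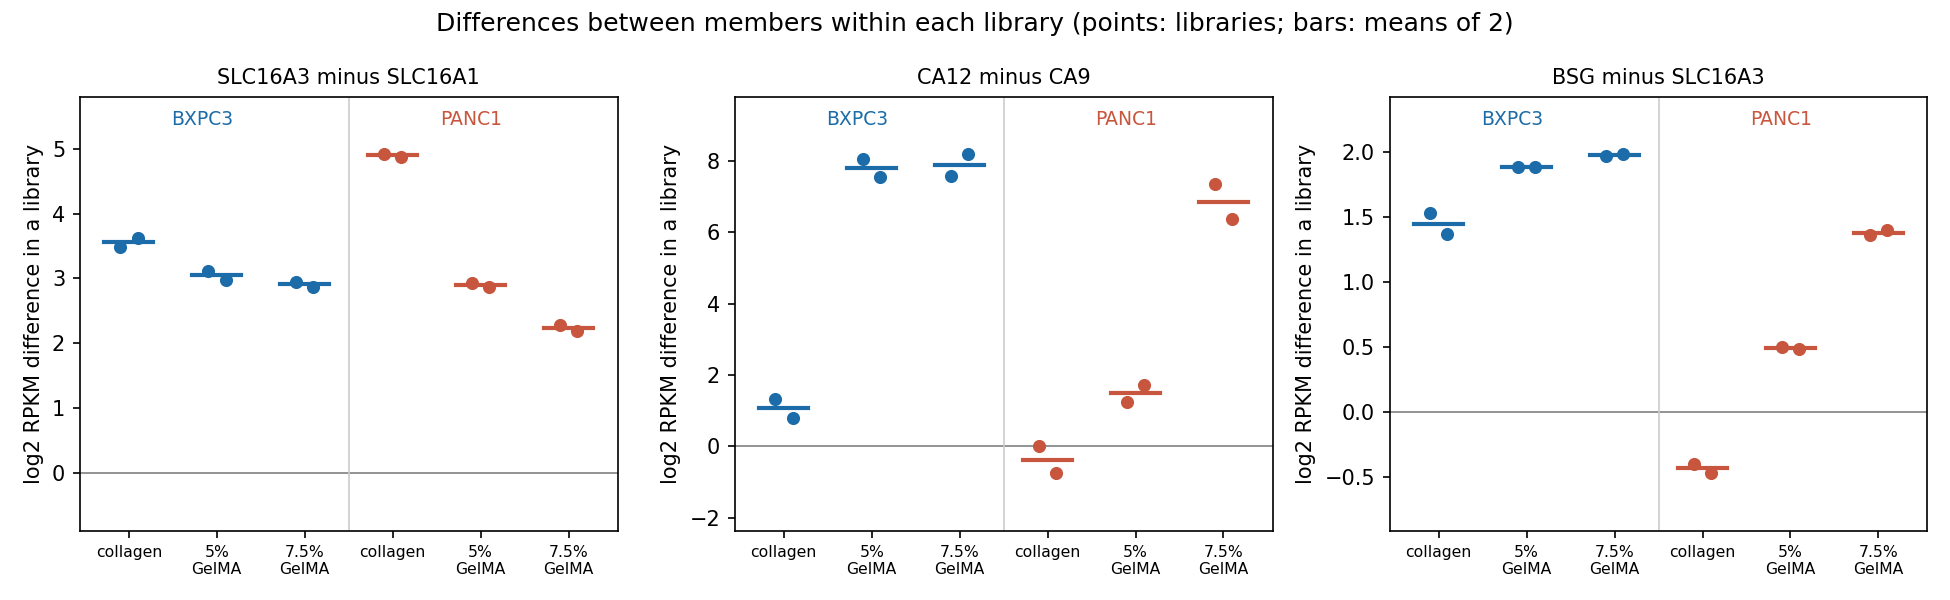
Within-library differences of log2 RPKM (y axis) between SLC16A3 and SLC16A1, CA12 and CA9, and BSG and SLC16A3 in the 6 groups (x axis), with 1 point per library and a bar at the mean of 2. In PANC1 the excess of SLC16A3 over SLC16A1 dropped from 4.90 in collagen to 2.24 in 7.5% GelMA, below every BXPC3 library.

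SLC16A3 (ENSG00000141526, chromosome 17, 82228397 to 82261129, plus strand), which encodes the lactate exporter MCT4, was lower in GelMA in both lines. In BXPC3 it was at 7.38 and 7.52 log2 RPKM in collagen, 7.03 and 7.05 in 5% GelMA and 6.96 and 6.96 in 7.5% GelMA. In PANC1 it was at 9.09 and 9.11 in collagen, 7.91 and 7.92 in 5% GelMA and 7.10 and 7.13 in 7.5% GelMA. No GelMA library overlapped a collagen library of its line. PANC1 in collagen, at 548 RPKM, stood highest of the 6 groups, and PANC1 in 7.5% GelMA, at 138 RPKM, lay between BXPC3 in collagen (175 RPKM) and BXPC3 in 5% GelMA (132 RPKM).

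The SLC16A3 level fell by 0.45 ± 0.04 log2 in BXPC3 (adjusted p = 3.03e-05) and by 1.59 ± 0.04 in PANC1 (adjusted p = 1.93e-09). The fall was larger in PANC1 by 1.14 ± 0.05 (adjusted p = 4.47e-07). From 5% to 7.5% GelMA it fell by a further 0.80 ± 0.04 in PANC1 (adjusted p = 6.26e-06), against -0.08 ± 0.04 in BXPC3, which did not pass. The concentration effects differed by -0.72 ± 0.06 (adjusted p = 0.000285). Over all matrices PANC1 had 0.89 ± 0.02 more SLC16A3 (adjusted p = 4.43e-11), or 0.50 after rescaling to steady genes.

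SLC16A3 overlaps 3 genes that had a row, CSNK1D on the opposite strand and the others on its own strand. Values of the same-strand genes are not given here. The difference of CSNK1D in GelMA was -0.11 ± 0.03 in BXPC3 and -0.17 ± 0.03 in PANC1, both called and both smaller. The nearest profiles to SLC16A3 over the 12 libraries were FAM13A (root mean square difference 0.10 log2), SPAG4 (0.11) and PTPRF (0.11), against 0.60 for its own deviation. These 3 genes had GelMA effects of -1.69, -1.50 and -1.69 in PANC1 and -0.56, -0.71 and -0.24 in BXPC3.

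SLC16A1 (ENSG00000155380, chromosome 1, 112911847 to 112957013, minus strand), encoding MCT1, moved against SLC16A3 in PANC1. It was at 4.17 and 4.23 log2 RPKM in collagen, 4.99 and 5.05 in 5% GelMA and 4.81 and 4.93 in 7.5% GelMA, without overlap between collagen and GelMA. It rose by 0.74 ± 0.06 (adjusted p = 5.23e-06), from 18.4 RPKM to 32.4 and 29.3 RPKM. In BXPC3 it was at 3.90 and 3.90 in collagen, 3.91 and 4.07 in 5% GelMA and 4.01 and 4.09 in 7.5% GelMA. The difference there was 0.12 ± 0.06 (95% interval -0.01 to 0.26, adjusted p = 0.142), and -0.03 after rescaling to steady genes. The effects differed between the lines by 0.62 ± 0.09 (adjusted p = 0.000362). The 7.5% and 5% gels did not differ measurably in either line (-0.15 ± 0.07 in PANC1, 95% interval -0.30 to 0.01, and 0.06 ± 0.07 in BXPC3, -0.10 to 0.22). The overlapping antisense gene SLC16A1-AS1 was at 0.576 to 0.98 RPKM in the group means and lower in GelMA than in collagen in PANC1, where SLC16A1 was higher.

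Within a library, SLC16A3 exceeded SLC16A1 by 4.90 ± 0.03 log2 (SD, n = 2; 29.8-fold) in PANC1 in collagen, 2.89 ± 0.04 (7.43-fold) in 5% GelMA and 2.24 ± 0.07 (4.73-fold) in 7.5% GelMA. In BXPC3 the excess was 3.55 ± 0.10 (11.7-fold), 3.05 ± 0.10 (8.29-fold) and 2.91 ± 0.06 (7.51-fold). The exporter transcript therefore remained the more abundant of the pair in all 12 libraries. PANC1 had the wider excess in collagen and the narrower one in 7.5% GelMA, while in 5% GelMA its libraries (2.92 and 2.87) lay just below those of BXPC3 (3.12 and 2.98).

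BSG (ENSG00000172270, chromosome 19, 571277 to 583493, plus strand), the shared chaperone of both transporters, was the steadiest member and ranked 215th to 343rd of the 16299 genes in every library. In BXPC3 it was at 8.91 and 8.90 log2 RPKM in collagen, 8.92 and 8.93 in 5% GelMA and 8.93 and 8.95 in 7.5% GelMA. The difference was 0.03 ± 0.03 (95% interval -0.04 to 0.10, adjusted p = 0.455), but -0.12 and called after rescaling to steady genes (adjusted p = 0.0129), so its direction in BXPC3 depends on the scaling. In PANC1 it was at 8.70 and 8.64 in collagen, 8.41 and 8.40 in 5% GelMA and 8.47 and 8.53 in 7.5% GelMA, without overlap. It fell by 0.22 ± 0.03 (adjusted p = 0.00015), and the lines differed in this by -0.25 ± 0.04 (adjusted p = 0.00111). BSG-AS1, an overlapping antisense gene at 1.25 to 11.6 RPKM in the group means, rose by 0.35 ± 0.12 in BXPC3 and 0.42 ± 0.12 in PANC1.

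In PANC1 in collagen SLC16A3 stood above its chaperone, BSG minus SLC16A3 being -0.43 ± 0.05 log2 (SD, n = 2). In 5% and 7.5% GelMA it was the lower of the pair, by 0.49 ± 0.01 and 1.38 ± 0.02. In BXPC3 BSG exceeded SLC16A3 by 1.45 ± 0.11 in collagen, 1.89 ± 0.00 in 5% GelMA and 1.98 ± 0.01 in 7.5% GelMA. Only in PANC1 in collagen did the exporter transcript exceed basigin per length, in both libraries. Of the other 2 immunoglobulin-family chaperones, embigin (EMB) rose in PANC1 by 0.50 ± 0.06 (adjusted p = 9.3e-05) and neuroplastin (NPTN) fell by 0.21 ± 0.04 (adjusted p = 0.00234), and in BXPC3 they were at 0.06 and 0.00 and did not pass.

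SLC4A7 (ENSG00000033867, chromosome 3, 27372721 to 27484420, minus strand), the sodium bicarbonate cotransporter, was at 6.55 and 6.68 log2 RPKM in PANC1 in collagen, 6.85 and 6.82 in 5% GelMA and 7.17 and 7.01 in 7.5% GelMA. It rose in GelMA by 0.35 ± 0.06 (adjusted p = 0.00073). The further step from 5% to 7.5% was 0.26 ± 0.07 (adjusted p = 0.029). That call was lost after rescaling to steady genes (adjusted p = 0.104), without the mean-variance trend (0.0702) and without PANC1 5% GelMA replicate 1, replicate 2 or PANC1 7.5% GelMA replicate 1 (adjusted p = 0.0994, 0.139 and 0.192). In BXPC3, at 5.18 and 5.09 in collagen, 5.05 and 5.01 in 5% GelMA and 5.27 and 5.11 in 7.5% GelMA, the difference in GelMA was -0.02 ± 0.06 (95% interval -0.16 to 0.11, adjusted p = 0.796). The lines differed in the effect by 0.37 ± 0.08 (adjusted p = 0.00651). PANC1 had 1.73 ± 0.04 log2 more SLC4A7 over all matrices (adjusted p = 1.17e-11).

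**Figure D3:**
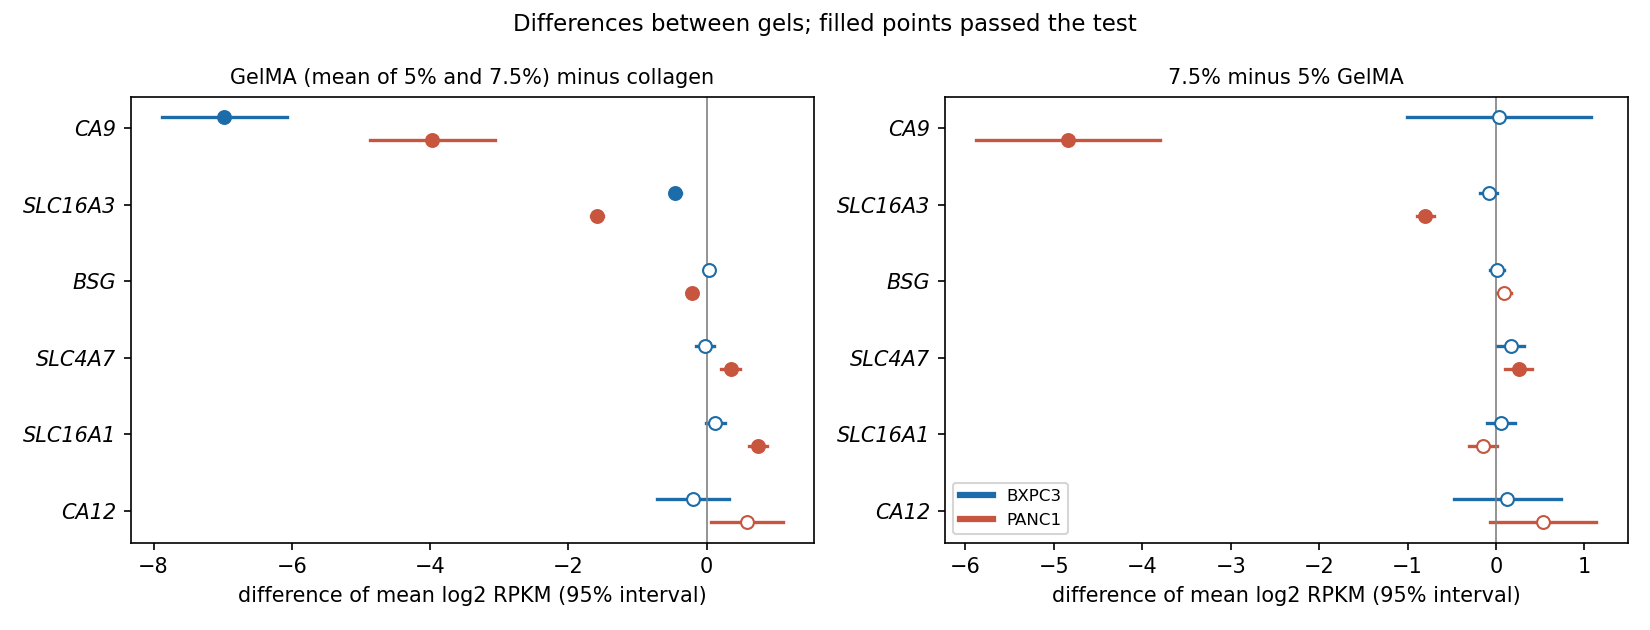
Differences of mean log2 RPKM (x axis) with 95% intervals for the 6 tested members (y axis), for GelMA against collagen (left) and 7.5% against 5% GelMA (right), BXPC3 in blue and PANC1 in red; filled points passed an adjusted p under 0.05. CA9 and SLC16A3 lie left of zero in both lines on the left, and only PANC1 points are filled on the right.

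By count, 2 of the 6 tested members were called in BXPC3 for GelMA against collagen, both lower, where 36.1% of all genes tested were called (19.4% higher and 16.7% lower). In PANC1, 5 of 6 were called, 2 higher and 3 lower, with 55.1% of all genes called (27.7% higher and 27.4% lower). The difference between the lines in this effect was called for 5 of 6, 3 higher and 2 lower (39.1% of all genes, 18.5% higher and 20.6% lower). The step from 5% to 7.5% GelMA was called for 0 of 6 in BXPC3 (0.0823% of all genes, 0.0443% higher and 0.038% lower). In PANC1 it was called for 3 of 6, 1 higher and 2 lower (18.7%, 9.16% higher and 9.56% lower). In BXPC3, SLC4A7 alone among the 6 had an unadjusted limma p under 0.05 for that step (0.0387). The lines differed in the concentration step for 2 of 6, both lower (8.97%, 4.01% higher and 4.96% lower). All 6 were called between the lines over all matrices, against 91.8% of the genes tested (50.0% with more and 41.9% with less in PANC1), SLC4A7, SLC16A3 and SLC16A1 higher in PANC1 (the last by 0.72 ± 0.04, or 0.33 after rescaling) and CA12, CA9 and BSG lower (BSG by 0.40 ± 0.02, or 0.79 after rescaling). The share for GelMA in BXPC3 and that between the lines are near their backgrounds. None of these counts was tested against its background, and 6 genes chosen by name are too few to read a share from. The median effect of the 6 was -0.11 in BXPC3 and 0.07 in PANC1, against 0.01 and -0.01 over all genes.

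The other genes of acid and lactate handling were followed by lists that exclude the members. Of all genes tested, 19.4% rose and 16.7% fell in GelMA in BXPC3, and 27.7% rose and 27.4% fell in PANC1. Counts near these shares are no result about a list. Shares of all genes after rescaling are not given here. Of 4 further carbonic anhydrases tested, CA5B, a mitochondrial isoform, rose in PANC1 by 1.29 ± 0.10 (adjusted p = 4.53e-06), was at -0.21 ± 0.10 in BXPC3 (called after rescaling, at -0.36), and differed between the lines by 1.50 ± 0.15 (adjusted p = 3.96e-05). CA13, a cytosolic isoform, fell in BXPC3 by 0.41 ± 0.14 (adjusted p = 0.0428), though at 5% GelMA alone it did not pass (-0.20, limma adjusted p = 0.381). CA8 and CA11, both without catalytic activity, did not pass in either line.

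Of 8 other monocarboxylate transporters and chaperones tested, 2 rose and 1 fell in BXPC3 (1 and 2 after rescaling), and 4 rose and 1 fell in PANC1, with medians of 0.08 (-0.07 after rescaling) and 0.19. For this list and the next, 36.1% of all genes were called in either direction in BXPC3 and 55.1% in PANC1. SLC16A13, an orphan member of the family, rose in both lines (0.28 ± 0.05 in BXPC3 and 0.47 ± 0.05 in PANC1), but its BXPC3 call was lost after rescaling (0.13, limma adjusted p = 0.0746). In the lactate and pyruvate branch, 4 of 10 genes rose and 3 fell in each line (2 and 3 in BXPC3 after rescaling). LDHA, the lactate dehydrogenase subunit that favours lactate, fell by 1.13 ± 0.09 in BXPC3 and 0.81 ± 0.09 in PANC1. PDK1, the kinase that closes pyruvate dehydrogenase, fell by 1.41 ± 0.09 and 2.30 ± 0.09. The mitochondrial pyruvate carrier genes MPC1 (0.64 and 0.40) and MPC2 (0.32 and 0.43) and the phosphatase PDP1 (0.30 and 0.51) rose in both lines, although after rescaling PDP1 lost its call in BXPC3 (0.15, limma adjusted p = 0.107). At 5% GelMA alone the MPC1 difference in PANC1 did not pass (0.07, limma adjusted p = 0.669). LDHA and PDK1 are themselves known targets of the hypoxia-inducible factors. The activity of these factors was not measured, and the cause of the 2 falls was not tested.

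In BXPC3, 19.4% of all genes tested rose and 16.7% fell, and in PANC1 27.7% rose and 27.4% fell. Of 12 other bicarbonate and anion exchangers and partners, 5 rose and 0 fell in BXPC3 (4 and 3 after rescaling) and 3 rose and 2 fell in PANC1. SLC4A11 rose by 0.31 ± 0.04 in BXPC3 and by 1.34 ± 0.04 in PANC1, and AHCYL2 rose by 0.32 and 0.39. SLC26A11 rose by 1.09 ± 0.12 in BXPC3, where it stayed below 1 RPKM, and fell by 0.52 ± 0.12 in PANC1. Of 15 sodium-proton exchangers and partners, 6 rose and 2 fell in BXPC3 (3 and 5 after rescaling), and 9 rose and 1 fell in PANC1. Those called upward in both lines were SLC9A2 (0.80 in BXPC3 and 0.43 in PANC1, the latter 0.01 and not called at 5% GelMA alone), SLC9B2 (0.80 and 0.35), CHP1 (0.22 and 0.23, the former 0.07 and no longer called after rescaling), the membrane linker ezrin (EZR, 0.13 and 0.31, the former -0.01 after rescaling) and TESC (1.69 and 0.88), whose group means were all below 1 RPKM. SLC9A5 (-0.50 and 0.58) and NHERF2 (-0.26 and 0.16) moved in opposite directions.

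V-ATPase subunits form the proton pump of lysosomes and some plasma membranes. Of 20 tested, 13 rose and 1 fell in BXPC3, and 12 rose and 4 fell in PANC1. Of all genes, 19.4% rose and 16.7% fell in BXPC3, and 27.7% rose and 27.4% fell in PANC1. The list's medians were 0.24 and 0.28. After rescaling to steady genes, 5 rose and 3 fell in BXPC3 with a median of 0.09, and the PANC1 counts were again 12 and 4. Rescaling shifts every gene of a comparison alike, by -0.15 in BXPC3, so the list's distance from the median of all genes is unchanged. Before rescaling that median was 0.01 in BXPC3 and -0.01 in PANC1, and the median of the 10 steady genes was 0.13 and 0.10. ATP6V0E2 (0.76 ± 0.06 in BXPC3 and 0.69 ± 0.06 in PANC1), ATP6V0D1 (0.27 and 0.63) and ATP6V1B2 (0.20 and 0.54) rose in both lines, as did ATP6V1A, ATP6V1C1, ATP6V1E1, ATP6V1F, ATP6V1G1, ATP6V1H and ATP6V0A2 by 0.15 to 0.41. Of these 10, after rescaling ATP6V0D1 (0.12), ATP6V1B2 (0.06), ATP6V1C1, ATP6V1E1, ATP6V1G1 and ATP6V1A (0.00) lost their calls in BXPC3. ATP6V0A1 (0.36 and -0.16) and ATP6V0B (0.24, or 0.09 and no longer called after rescaling, and -0.20) moved in opposite directions.

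Of 9 acid-sensing receptors and channels, 2 rose and 0 fell in BXPC3 (1 and 1 after rescaling) and 1 rose and 2 fell in PANC1. Over all genes, 36.1% were called in either direction in BXPC3 and 55.1% in PANC1. KCNK3, an acid-sensitive potassium channel gene, was at 6.84 and 6.66 log2 RPKM in PANC1 in collagen, 5.26 and 5.43 in 5% GelMA and 2.86 and 3.10 in 7.5% GelMA, and fell by 2.59 ± 0.59 (adjusted p = 0.00418). In BXPC3 it was far below 1 RPKM in every library. KCNK5 rose by 0.64 ± 0.13 and GPR132 fell by 1.03 ± 0.27 in PANC1, GPR132 staying below 1 RPKM there, and the proton-gated channel gene ASIC1 rose by 0.94 ± 0.08 in BXPC3.

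Genes listed as partners of CA9, MCT4 or basigin, an association that was not checked here, moved in both directions. Of 10, 3 rose and 3 fell in BXPC3 (1 and 5 after rescaling), and 4 rose and 6 fell in PANC1. The shares of all genes called in either direction were 36.1% in BXPC3 and 55.1% in PANC1. The glucose transporter SLC2A1 fell by 0.73 ± 0.08 in BXPC3 and 1.52 ± 0.08 in PANC1, and the cyclophilin PPIB by 0.29 and 0.18. The amino acid transporter chains SLC3A2 (0.48 in BXPC3 and -0.44 in PANC1) and SLC7A5 (0.28 and -0.58) rose in BXPC3 and fell in PANC1, and glutamine synthetase (GLUL, -0.38 and 0.24) did the reverse. The PANC1 falls were called at 5% GelMA alone (-0.76 for SLC3A2 and -0.99 for SLC7A5) but not at 7.5% alone (-0.13 and -0.17, limma adjusted p = 0.103 and 0.0993). The PANC1 rise of GLUL was called at 7.5% alone (0.40) and not at 5% (0.09, limma adjusted p = 0.269). After rescaling SLC7A5 lost its call in BXPC3 (0.13, limma adjusted p = 0.142). The difference between the lines was called for each of these 3, at -0.92 ± 0.07, -0.86 ± 0.10 and 0.62 ± 0.07. CD44 rose by 0.12 ± 0.03 in BXPC3 (-0.03 after rescaling, and 0.05 and not called at 5% GelMA alone) and by 0.39 ± 0.03 in PANC1.

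**Figure D4:**
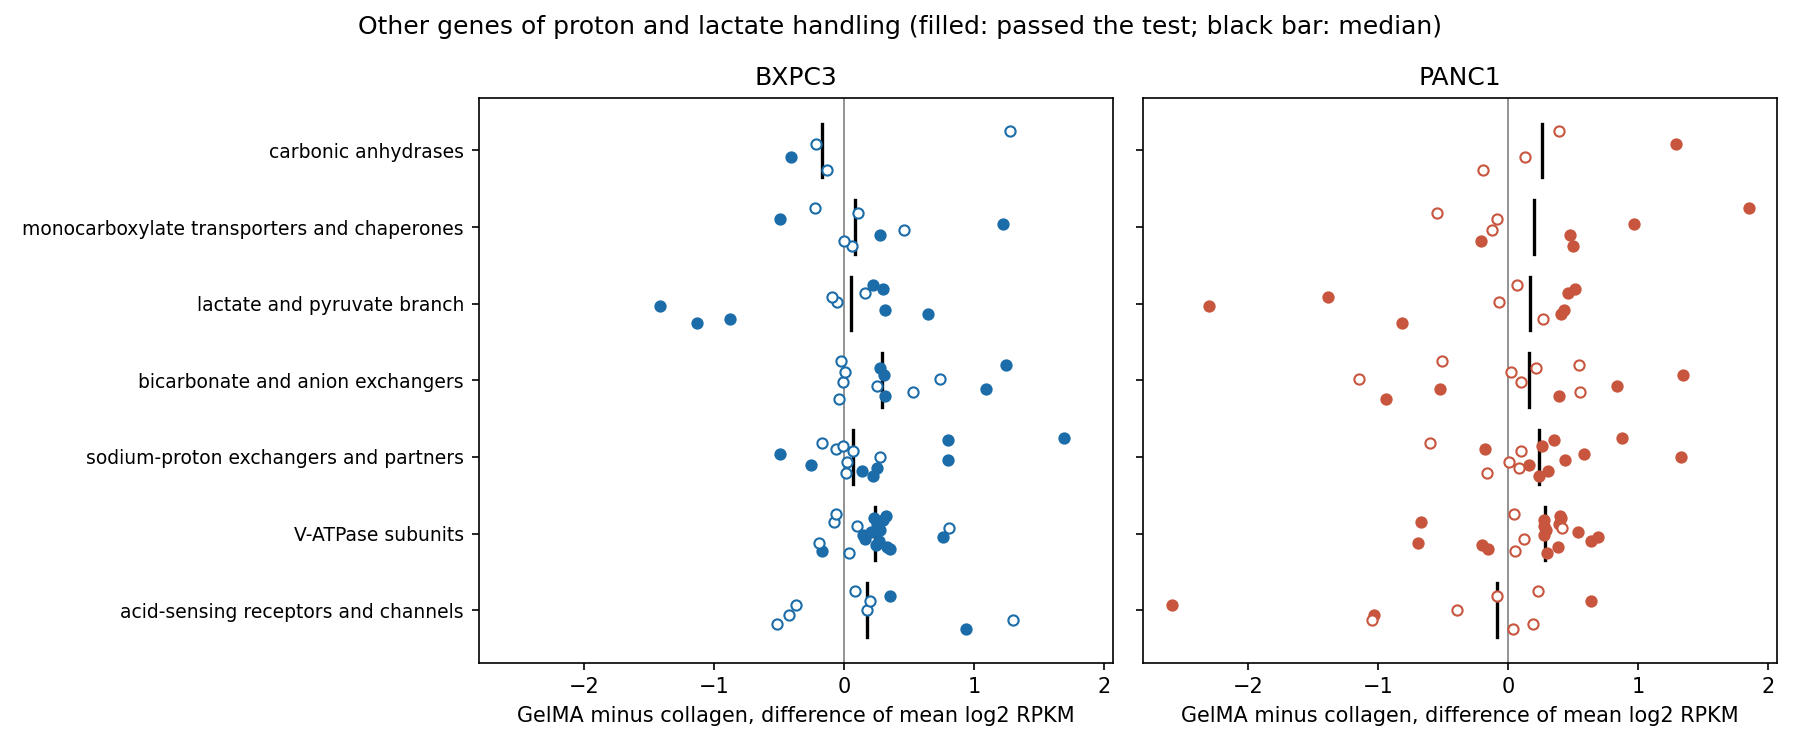
GelMA effect (x axis, difference of mean log2 RPKM) of the other tested genes in 7 lists (y axis) in BXPC3 (left) and PANC1 (right), with 1 point per gene, filled where the test passed, and a black bar at the list's median. The V-ATPase medians lie at 0.24 and 0.28, and the lowest points of the lactate and pyruvate branch are PDK1 at -1.41 and -2.30.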

How the data were processed

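Poly-A RNA sequencing was done on 12 libraries, per the labels' protocols. HISAT2 2.1.0, HTSeq and GRCh38 (hg38) are named in the submitters' processing notes. Annotation, gene lengths, offset and strand setting were not given in the sources used here. As deposited by the authors, values were log2 RPKM for 16299 genes, from -8.66 to 13.74, with 0 columns unmapped. Sorted values agreed between all libraries within 0.05 for 13758 ranks, so the values were taken as quantile normalized, and sequencing depth is unknown.

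Gene IDs were named from a table of gene names (16250) and GENCODE 29 (49). The 15794 genes that reached 1 RPKM in 2 or more libraries were tested with limma 3.58.1 in R 4.3.3 (group means over 12 libraries, mean-variance trend, 6 residual degrees of freedom), with Benjamini-Hochberg adjustment over all genes and a threshold of 0.05. The script was checked on simulated data. Steady-gene rescaling shifted each library to equal medians of 10 genes. The members, lists and naming rule (the 7 members, genes called in both lines or else the up to 4 largest per list, and the 3 nearest profiles of members that moved by at least 1 log2) were chosen with earlier results of these data known. CA8, CA11, EMB, NPTN, COL3A1, ACTA2 and the genes that overlap a member on the opposite strand were named beyond the rule, after their values were seen. A gene that the rule named is not reported here.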

Additional observations from a re-analysis of the deposited data

Results flagged for a closer look

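The GelMA effect differed between the lines by the interaction test in limma for 5 members (PANC1 minus BXPC3). The difference was 3.01 log2 for CA9, whose fall was larger in BXPC3 for the average of both concentrations and at 5% GelMA alone (5.44) but not called at 7.5% alone (0.57, adjusted p = 0.539), and -1.14 for SLC16A3, whose fall was larger in PANC1. It was 0.62 for SLC16A1 and 0.37 for SLC4A7, which rose in PANC1 and did not pass in BXPC3, and -0.25 for BSG, which fell in PANC1 and did not pass in BXPC3, although rescaling to steady genes made it a called fall there too (-0.12).

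The effect of GelMA concentration (7.5% minus 5%) also differed between the lines for 2 members, by -4.88 for CA9 and -0.72 for SLC16A3. Both genes stepped down in PANC1 and their steps in BXPC3 did not pass. For CA9 the call was lost on the log2(RPKM + 1) scale. Each library was left out in turn, as given below, but a group of 2 libraries cannot show which of them is the outlying one.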

How the results depend on the processing

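Rescaling to 10 steady genes moved the median of all genes by -0.15 log2 in BXPC3 for GelMA against collagen, -0.03 in PANC1, 0.12 in the difference between the lines and -0.39 between the lines over all matrices. Before rescaling, 5 of the 10 were called higher in GelMA in BXPC3 and 6 in PANC1, so the reference itself was not steady in these tests. Under it the BXPC3 GelMA effect reversed for SLC16A1 (-0.0251), BSG (-0.12), EZR (-0.0142), ATP6V1A (-0.0018) and CD44 (-0.0294), the PANC1 effect for ASIC1 (-0.0014), and the BXPC3 concentration step for BSG (-0.015). With 1 library left out, BXPC3 GelMA effects that reversed ranged from -0.6235 to 0.2312 for CA12 (reversed without collagen replicate 2), -0.0668 to 0.0198 for SLC4A7 (without collagen replicate 1, or 0.0156 without 7.5% GelMA replicate 2) and -1.816 to 1.08 for KCNK3 (without collagen replicate 2). BXPC3 concentration steps ranged from -0.3707 to 0.4423 for CA9 (without 5% GelMA replicate 1, or -0.2969 without 7.5% GelMA replicate 1), -0.0192 to 0.2779 for CA12 and -0.0169 to 0.1378 for SLC16A1 (both without 5% GelMA replicate 1). With each GelMA concentration set alone against collagen, an alternative chosen after seeing the data, members called were 2 at both in BXPC3, 5 at 5% and 6 at 7.5% in PANC1, and 5 and 4 for the difference between the lines. At 7.5% alone the sign reversed for SLC4A7 (0.059), KCNK3 (0.9641) and KRT7 (-0.0078) in BXPC3 and ASIC1 in PANC1 (-0.1794). The cause was not tested.

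The 13 genes called by limma between concentrations in BXPC3 became 0 on the log2(RPKM + 1) scale and 0 with BXPC3 libraries alone. The 1417 genes whose concentration step differed between the lines became 941 without the mean-variance trend, and the 2 members among them became 1 on the log2(RPKM + 1) scale. With 1 library left out, genes called ranged from 3623 to 5845 for GelMA in BXPC3 (lowest without collagen replicate 2), 7139 to 8949 in PANC1, 5321 to 6037 for their difference, 1 to 33 and 1449 to 3162 for concentration in BXPC3 and PANC1, 659 to 1651 for that difference and 14338 to 14462 between the lines. Members called ranged from 2 to 2, 5 to 6, 5 to 6, 0 to 0, 2 to 3, 2 to 2 and 5 to 6 in the same order. A group left with 1 library was assumed to vary like the others.

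Same-numbered libraries shared only a number: their deviations correlated between -0.048 and 0.077 over 15 pairs of groups, with 0 over 0.1. With the replicate number as a block, the 13 genes became 1, CA13 in BXPC3 lost its call, and members called stayed at 2, 5, 5, 0, 3, 2 and 6. Depth is unknown, so values under 1 RPKM carry an unknown counting error.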
